A study of Macaca mulatta with 81 samples.

Results

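Solute carriers, named SLC followed by a family number, the letter A and a member number, are the membrane proteins that move nutrients, metabolites, ions and metals across the plasma membrane and the membranes of organelles. They were taken as the genes whose symbol has that form and that had a probe set naming no other gene. A gene was tested if its brightest probe set, the one with the highest mean over the arrays, exceeded a floor in 2 or more arrays; the floor was a log2 intensity of 4.65, below which 40% of the values lay. By this rule 199 of 254 SLC genes on the array entered the tests, among 11807 genes in all. The other 55 did not pass, among them SLC7A11, SLC7A1, SLC2A4, SLC39A14 and SLC1A2, and nothing is said of their levels here. Of the 199, 150 lay above the filter in all 81 arrays. Another 10 did so in fewer than 10 arrays (SLC18A2, SLC37A2, SLC12A8, SLC16A4, SLC6A20, SLC30A8, SLC34A1, SLC22A11, SLC17A1 and SLC44A5), and such genes passed only through the arrays where they were high.

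The arrays measured RNA from T cells of rhesus macaque blood, sorted on CD3, from 34 healthy animals (Healthy.Control). Another 47 arrays came from 27 recipients of a hematopoietic cell transplant (HCT). Of 50 animals in all, 11 gave both healthy and transplant arrays. Recipients of their own cells were sampled on day 14 (Auto.D14, n = 3) and day 36 (Auto.D36, n = 3), without prophylaxis. All other recipients had allogeneic donors, whose cells can attack the host (graft-versus-host disease, GVHD). They received no prophylaxis (NoRx.F, n = 4) or one of 6 regimens, whose abbreviated names are taken here as sirolimus (Siro), tacrolimus with methotrexate (Tac.Mtx), the CD28 pathway blocker belatacept (Bela), the CD28-binding fragment FR104, and sirolimus added to either CD28 agent. Final samples, labelled F with no day given, came from Siro.F (n = 4), Tac.Mtx.F (n = 3), Bela.F (n = 3), Bela.Siro.F (n = 2), FR104.F (n = 3) and FR104.Siro.F (n = 4). Earlier samples came from Tac.Mtx.D14 (n = 3), Tac.Mtx.D30 (n = 2), Bela.Siro.D14 (n = 3), Bela.Siro.D30 (n = 3, days 29, 30 and 30), FR104.D14 (n = 3) and FR104.Siro.D14 (n = 4, of which 2 were taken on day 14 and the others on days 22 and 34). Age, conditioning and GVHD score are not in the labels used here. Each replicate is named by the number of its animal.

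Resting T cells live largely on oxidative metabolism, and T cells that divide take up more glucose, amino acids and iron and export lactate. The carriers named below include the lactate and pyruvate exchangers of the SLC16 family, the glucose transporters of the SLC2 family, the amino acid carriers of the SLC7 and SLC38 families, the carriers of the mitochondrial inner membrane (SLC25), and the zinc and iron transporters of the SLC30, SLC39 and SLC40 families. Zinc carriers of family 30 move zinc out of the cytosol, those of family 39 move it in, and SLC40A1 is the exporter of iron.

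In healthy T cells the SLC genes were less bright than genes in general: the median of their mean log2 intensities was 6.30, against 7.20 for all genes tested. By substrate class, mitochondrial carriers (32 genes) had the highest median, 7.87 on this scale, followed by metal transporters (19 genes, 7.63) and by nucleoside and nucleotide sugar carriers (9 genes, 7.18). Lipid and bile acid carriers (7 genes) had a median of 6.97, amino acid and peptide carriers (38 genes) 6.13 and sugar carriers (20 genes) 6.09. Carriers of lactate and other carboxylates (11 genes) had a median of 5.73. Organic ion carriers (17 genes) stood at 5.65, vitamin and choline carriers (14 genes) at 5.50, and carriers of inorganic ions (30 genes) at 5.47. Intensities of different probe sets are not on a per-length scale, so this order describes probe brightness and not molar amounts. The brightest members of their classes were SLC25A5, the ADP/ATP exchanger of mitochondria, at 11.75, SLC4A7, a sodium bicarbonate cotransporter, at 11.40, SLC2A3, the neuronal-type glucose transporter GLUT3, at 9.89, and SLC38A10 at 10.09. Healthy animals differed little in most of these genes: the median SD over the 34 arrays was 0.19, against 0.20 for all genes tested, with a range over SLC genes from 0.11 to 0.96.

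Some features of the whole series bear on these values. The submitted values look adjusted for batch, which no source used here states: among healthy arrays an F test between the 4 batches gave p above 0.95 for 61.02% of probe sets. Signals of the 27 hybridization spike-in probe sets lay above the healthy maximum (11.57) in 8 arrays: all 4 FR104.Siro.D14 arrays, Auto.D14 replicate 202, Bela.Siro.F replicate 38, FR104.D14 replicate 23 and FR104.Siro.F replicate 29. Of 8 T cell markers, CD5, CD6 and TRAT1 were named in the gene table used here, and the defining CD3 genes were not, so the sort was checked only through these 3, whose mean lay between 9.41 and 10.34 in healthy arrays and between 8.95 and 9.48 in NoRx.F. The mean of 9 monocyte and myeloid markers was 4.55 to 7.53 in healthy arrays and 6.20 to 8.51 in NoRx.F, where 4 of the 9 were higher and none lower. Its group means were 8.15 in Bela.F, 7.77 in Bela.Siro.D14, 7.65 in Bela.Siro.D30 and 8.02 in Bela.Siro.F, where replicate 42 stood at 9.52, and 7.5 in NoRx.F. The mean of 8 cell division genes was 5.66 to 6.94 in healthy arrays and 8.91 to 10.10 in NoRx.F, where 8 of 8 were higher. The part of these markers in the SLC results was not tested except where a value is given. In sorted bulk samples, fewer cells of a type and less RNA per cell cannot be told apart.

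Against the healthy arrays, T cells of recipients without prophylaxis (NoRx.F) had 24 SLC genes higher and 23 lower at a Benjamini-Hochberg adjusted p under 0.05 in limma. Among all genes tested, 20.0% were higher and 15.4% lower in this comparison, so the SLC shares of 12.1% and 11.6% were below the background. The median log2 change was 0.02 over the SLC genes and 0.05 over all genes. Leaving out each NoRx.F array in turn gave between 37 and 41 SLC genes. The 23 SLC genes that fell were bright in health, with a median level of 8.32 and 1 of them below the SLC median. The 24 that rose had a median level of 6.66, with 11 below it. This split was not computed over all genes tested, so it is not read as a trait of the SLC genes. Changes of opposite sign stood in most classes: metal transporters had 5 higher and 3 lower of 19, mitochondrial carriers 5 and 5 of 32, and carboxylate carriers 3 and 2 of 11. Of those 2, SLC13A2 is of a family that carries di- and tricarboxylates and not lactate. Vitamin and choline carriers had 3 and 1 of 14, sugar carriers 3 and 1 of 20, and amino acid carriers 1 and 4 of 38. Inorganic ion carriers had 1 higher and 3 lower of 30, organic ion carriers 0 and 2 of 17, and lipid carriers 1 and 0 of 7. The inorganic ion carrier that rose, SLC12A8, exceeded the filter floor in fewer than 10 arrays. It entered the test only through arrays where it was high, so its rise is not independent of the filter. Nucleoside and nucleotide sugar carriers had 2 higher (SLC29A4 and SLC33A2) and 1 lower (SLC35A1) of 9. Classes were set by gene or by SLC family, so a class name need not give the main substrate of each member.

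**Figure D1:**
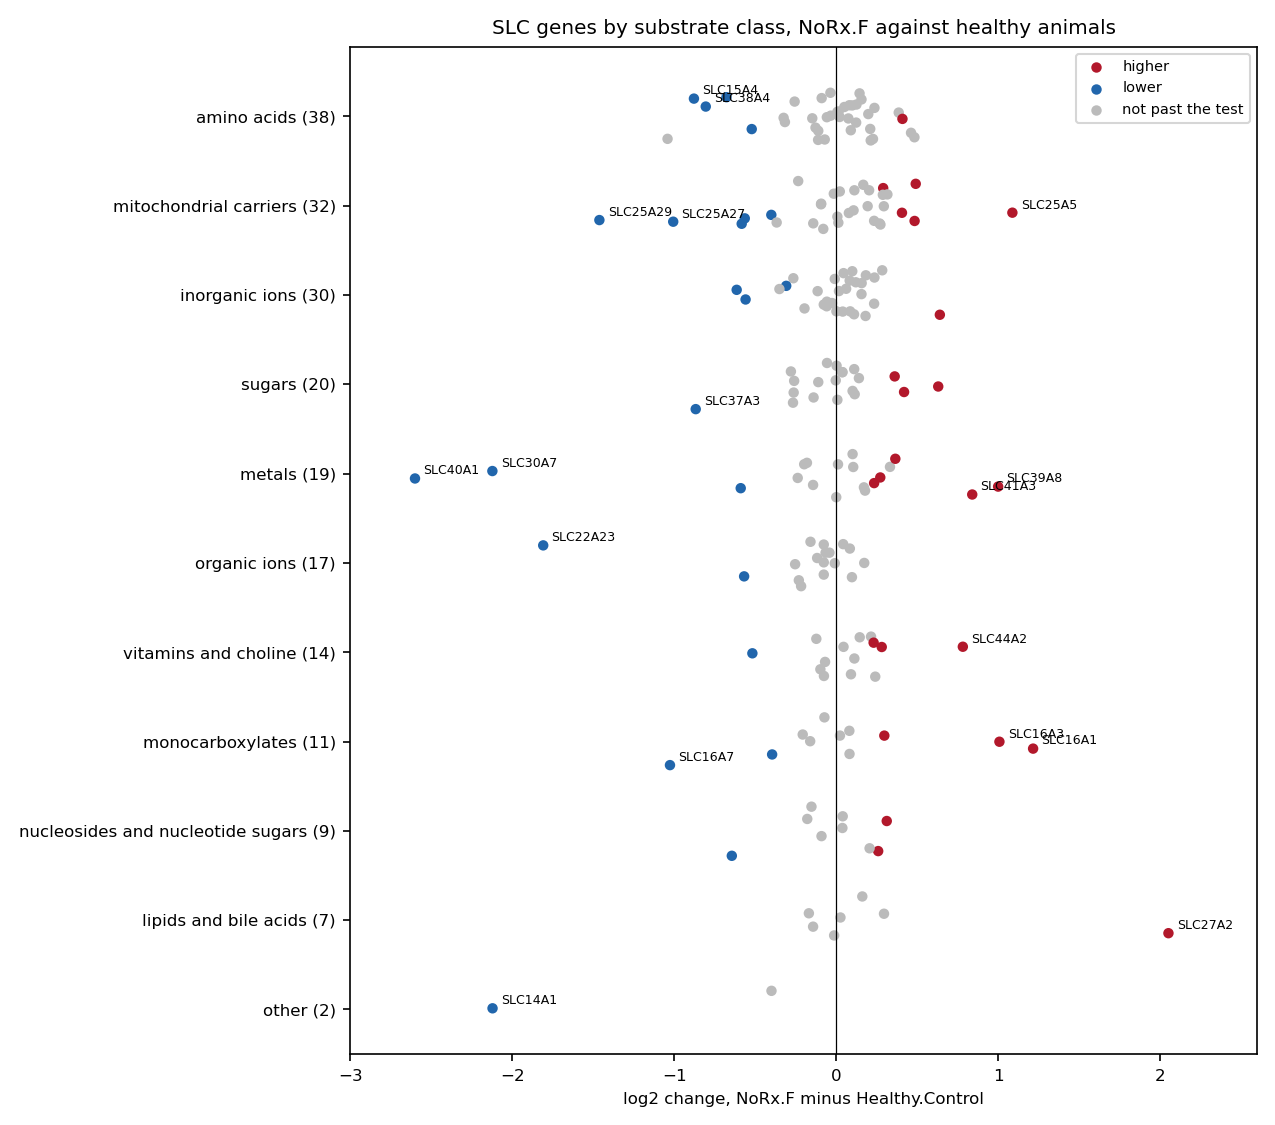
Log2 change of each of the 199 SLC genes in NoRx.F (n = 4) against Healthy.Control (n = 34), with a row for each substrate class and its number of genes in brackets, and vertical scatter within a row for legibility only. Red points were higher and blue points lower at adjusted p under 0.05 (limma). The row of monocarboxylates also holds SLC13A2, of a family that carries di- and tricarboxylates. Genes of most classes lie near 0, with SLC27A2 at 2.05 farthest to the right and SLC40A1 at -2.60 farthest to the left.

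The largest rise of an SLC gene in NoRx.F was that of SLC27A2, a fatty acid transport protein that also activates very long chain fatty acids as an acyl-CoA synthetase. Its 4 NoRx.F arrays stood at 10.09, 10.30, 10.25 and 9.30, and the healthy arrays had a lowest value of 7.12, a median of 7.97 and a highest of 8.69. No NoRx.F array overlapped the healthy range. The log2 change was 2.05 ± 0.25 (SE, adjusted p = 6.45e-10, limma), and the call held in 4 of 4 fits that each left out 1 NoRx.F array. SLC27A2 was also higher in Siro.F, at 8.76, 7.76, 9.28 and 8.79, a change of 0.71 ± 0.24 (adjusted p = 0.0361). That call was lost without replicate 17 (0.66), 13 (0.47) or 18 (0.66), and the change was 0.33 (adjusted p = 0.537) within batch 1 alone and 1.08 (0.0217) within batch 2 alone. In the other 13 groups it did not pass the test, with changes between -0.57 (FR104.Siro.D14) and 0.78 (Tac.Mtx.D30).

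Set against NoRx.F itself, SLC27A2 was lower in all 6 prophylaxis groups at their final sample: by the fit, -1.35 ± 0.30 in Siro.F (adjusted p = 0.00136), -1.56 ± 0.37 in Tac.Mtx.F (0.00476), -1.60 ± 0.37 in Bela.F (0.00829), -2.36 ± 0.41 in Bela.Siro.F (8.17e-05), -1.94 ± 0.39 in FR104.F (0.00119) and -2.49 ± 0.37 in FR104.Siro.F (1.73e-06). These 6 comparisons share the 4 NoRx.F arrays and so are not independent. NoRx.F replicate 53, the only one of batch 2, was the lowest of the 4, and Siro.F replicate 13 at 9.28 came nearest to it. NoRx.F was 1.56 ± 0.39 above Auto.D14 (adjusted p = 0.0136), whose arrays read 8.61, 8.60 and 8.12. That call was lost without Auto.D14 replicate 200 (1.40, adjusted p = 0.0745), and the Bela.F call without Bela.F replicate 57 (-1.20, 0.163).

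Carriers of lactate and pyruvate moved in both directions in NoRx.F. SLC16A3, the lactate exporter MCT4, read 9.53, 9.60, 9.48 and 9.04 in NoRx.F, all above the healthy highest value of 8.87 (lowest 7.91, median 8.43). It was higher by 1.01 ± 0.15 (adjusted p = 1.17e-07), and 2 of its 3 probe sets were called higher, while the dimmest, at a mean of 6.34, changed by -0.15 with adjusted p = 0.315. SLC16A3 was also higher in Siro.F (0.55 ± 0.14, adjusted p = 0.00535), FR104.F (0.69 ± 0.18, 0.00666) and FR104.D14 (0.57 ± 0.18, 0.0474). The FR104.D14 call was lost whichever of its 3 arrays was left out, the FR104.F call without replicate 22 (0.67, 0.0691) and the Siro.F call without replicate 18 (0.44, 0.0888). Against NoRx.F it was lower in Tac.Mtx.F (-0.81 ± 0.22, 0.0143), Bela.F (-0.81 ± 0.22, 0.036) and FR104.Siro.F (-0.84 ± 0.22, 0.00437). The Tac.Mtx.F difference was lost without Tac.Mtx.F replicate 19 (-0.71, 0.0845). The Bela.F difference passed in 3 of 7 fits with an array left out and was -0.48 (0.399) without Bela.F replicate 57, which was at 7.97 beside 9.11 and 8.81.

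SLC16A1, the lactate and pyruvate carrier MCT1, was dim in healthy T cells, with a lowest value of 4.01, a median of 4.66 and a highest of 5.77. NoRx.F arrays read 6.06, 5.80, 5.64 and 6.30, a change of 1.22 ± 0.45 (adjusted p = 0.0261) that was lost without replicate 50 (1.18, 0.061) or 53 (1.05, 0.127). It was higher in FR104.F by 1.61 ± 0.53 (0.0381), where replicate 24 at 7.67 stood apart from 5.85 and 5.58, and the call was lost without replicate 24 (0.96, 0.367) or 22 (1.87, 0.0823). In Siro.F the change was 1.46 ± 0.43 (0.0123), with 7.94 and 6.61 in the arrays of batch 2 and 4.97 and 5.30 in those of batch 1. It was lost without replicate 13 (0.81, 0.309) or 18 (1.31, 0.0886). Within batch 1 alone the change was -0.09 ± 0.16 (adjusted p = 0.852), and within batch 2 alone 2.77 ± 0.37 (0.000364). SLC16A7, the related carrier MCT2, went the other way: it read 6.13, 6.60, 5.97 and 5.96 in NoRx.F against a healthy lowest value of 6.55 and median of 7.16, so that 3 of 4 arrays lay below the healthy range, a change of -1.03 ± 0.27 (0.0017). It was also lower in Bela.F (-0.93 ± 0.29, 0.0192) and in Bela.Siro.D30 (-1.10 ± 0.29, 0.0119), where replicate 49 was at 4.94. Without that replicate the change was -0.51 (0.51), and the Bela.F call was lost without replicate 47 (-0.84, 0.145) or 46 (-0.77, 0.164).

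SLC16A10, a member of the same family that carries aromatic amino acids and is counted with the amino acid carriers, was among the most variable SLC genes in health (lowest 4.25, median 5.43, highest 7.86). It was lower in Auto.D36 at 3.96, 3.78 and 4.05 (-1.69 ± 0.57, adjusted p = 0.0305), in Bela.Siro.D30 at 3.67, 4.10 and 3.63 (-1.87 ± 0.52, 0.0161) and in Tac.Mtx.D30 at 3.17 and 3.62 (-2.27 ± 0.61, 0.0254). All 8 of these arrays lay below the lowest healthy array. They also lay below the filter floor of 4.65, which SLC16A10 exceeded in 47 of 81 arrays, so these sizes rest on dim values. The calls held in 0 of 3, 1 of 3 and 0 of 2 fits with an array left out, where the changes ran from -1.62 (Auto.D36 without replicate 200) to -2.5 (Tac.Mtx.D30 without replicate 19). In NoRx.F the change was -1.04 ± 0.48 and did not pass (0.0837). In the other 11 groups it did not pass either, with changes from -0.40 in FR104.Siro.D14 to -1.52 in Bela.Siro.F.

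Amino acid carriers were the largest class, and most of those called in NoRx.F fell. SLC15A4, a lysosomal histidine and peptide carrier, fell by 0.88 ± 0.18 (adjusted p = 5.02e-05), and SLC38A4 and the cationic carrier SLC7A2 fell by 0.80 ± 0.19 (0.000372) and 0.68 ± 0.18 (0.00187). SLC1A7 was the 1 member that rose, by 0.41 ± 0.12 (0.00512), on its brightest probe set. Its other probe set, at a mean of 5.75, did not pass (0.17 ± 0.10, adjusted p = 0.178 in the limma fit over probe sets). Some carriers known to feed growing T cells did not pass there: the glutamine carrier SLC1A5 changed by 0.46 ± 0.20 (0.0672), the large neutral amino acid carrier SLC7A5 by -0.32 ± 0.18 (0.172) and SLC38A1 by -0.15 ± 0.28 (0.735). Against NoRx.F, SLC1A5 was lower in FR104.Siro.F (-0.89 ± 0.30, 0.0259) and SLC7A5 higher in Bela.Siro.F (0.95 ± 0.29, 0.031), where the 2 arrays read 6.45 and 7.59. The SLC7A5 call was lost without Bela.Siro.F replicate 42 (0.38, 0.632) or NoRx.F replicate 52 (0.90, 0.066), and the SLC1A5 call without FR104.Siro.F replicate 28 (-0.86, 0.0547) or NoRx.F replicate 53 (-0.72, 0.11). SLC38A4 was lower than in health in Siro.F (-0.56 ± 0.18), Tac.Mtx.F (-0.85 ± 0.20), Bela.F (-0.79 ± 0.20) and Bela.Siro.D14 (-0.86 ± 0.20) as well. Those calls held in 1 of 4, 2 of 3, 2 of 3 and 1 of 3 fits with an array left out, with the smallest changes -0.41 without Siro.F replicate 18, -0.67 without Tac.Mtx.F replicate 21 and -0.55 without Bela.F replicate 47.

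Sugar carriers showed small shifts in NoRx.F. SLC2A1, the glucose transporter GLUT1 that activated T cells are known to use, read 5.79, 6.09, 6.14 and 5.83, beside a healthy range from 5.27 to 5.89, a rise of 0.42 ± 0.14 (adjusted p = 0.0166) that was lost without replicate 51 (0.38, 0.058) or 52 (0.36, 0.0715). The brighter SLC2A3 changed by 0.10 ± 0.18 and did not pass (0.718) on its brightest probe set, while 1 of its other 3, at a mean of 7.10, rose by 0.51 ± 0.11 (0.000239). SLC37A1 rose by 0.63 ± 0.15 (0.000407). SLC37A3 fell by 0.87 ± 0.12 (3.2e-08), reading 7.45, 7.33, 7.60 and 7.97, all below the healthy lowest value of 8.08. Against NoRx.F, SLC37A3 was higher in Siro.F (0.79 ± 0.15), Tac.Mtx.F (0.74 ± 0.18), Bela.Siro.F (0.64 ± 0.20) and FR104.Siro.F (0.70 ± 0.18), and it was lower in NoRx.F than in Auto.D14 (-0.70 ± 0.19, 0.0265). The Bela.Siro.F and Auto.D14 calls held in 2 of 6 and 3 of 7 fits with an array left out, with sizes down to 0.54 without Bela.Siro.F replicate 42 and -0.62 without Auto.D14 replicate 200.

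SLC50A1, a sugar carrier of the SWEET family found on internal membranes, followed another order. In health it was narrow, from 8.66 to 9.24 with a median of 8.89. NoRx.F (8.78, 8.55, 8.91 and 8.80) and Auto.D36 (8.66, 8.67 and 8.72) did not pass, with changes of -0.14 ± 0.13 (adjusted p = 0.435) and -0.22 ± 0.15 (0.378). It was higher in all groups given a CD28 agent: 0.95 ± 0.14 in Bela.F (5.48e-07), 0.85 ± 0.14 in Bela.Siro.D14 (0.000128), 0.87 ± 0.14 in Bela.Siro.D30 (2.34e-05), 0.82 ± 0.17 in Bela.Siro.F (0.00133), 0.63 ± 0.15 in FR104.D14 (0.00658), 0.59 ± 0.15 in FR104.F (0.00668), 0.82 ± 0.14 in FR104.Siro.D14 (8.05e-05) and 0.81 ± 0.14 in FR104.Siro.F (6.74e-05). Every one of the 25 arrays of these 8 groups was above the highest healthy array. The calls were lost in Bela.Siro.F without replicate 42 (0.53, 0.362), in FR104.D14 without replicate 22 (0.55, 0.0733) or 23 (0.60, 0.0732), and in FR104.F without replicate 22 (0.60, 0.053) or 23 (0.52, 0.0678), and in the other 5 groups they held whichever array was left out. The changes were smaller in Tac.Mtx.D14 (0.55 ± 0.14, 0.0228) and Tac.Mtx.F (0.40 ± 0.14, 0.0425), whose calls each held in 0 of 3 fits with an array left out, and Siro.F did not pass (0.24 ± 0.12, 0.199).

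Against the healthy arrays of their own batch, SLC50A1 passed in the 4 Bela groups (batch 3) and the 4 FR104 groups (batch 4). Each of these groups, and each Tac.Mtx group, lies in a single batch, and the main fit has a batch term. Its changes are therefore already those against the healthy arrays of that batch. The fits within a batch repeat these changes and are no separate check of them. Only the SE and the adjusted p can differ. The Tac.Mtx.D14 and Tac.Mtx.F changes did not pass within batch 3 (0.55 ± 0.15, adjusted p = 0.0955, and 0.40 ± 0.15, 0.0861). In batch 3 the 13 healthy arrays averaged 8.91 (8.66 to 9.24) and Bela.F averaged 9.86, a change within that batch of 0.95 ± 0.15 (adjusted p = 8.84e-05). In batch 4 the 6 healthy arrays averaged 8.90, FR104.Siro.F averaged 9.71, and the change was 0.81 ± 0.13 (0.00128), while Auto.D14 and Auto.D36 of that same batch averaged 8.99 and 8.68. For FR104.F the change in batch 4 was 0.59 ± 0.15 (0.0169). Against NoRx.F, which was run in batches 1 and 2, SLC50A1 was higher in Bela.F (1.09 ± 0.19, 0.000567), Bela.Siro.F (0.96 ± 0.21, 0.00149), FR104.F (0.73 ± 0.20, 0.0153) and FR104.Siro.F (0.94 ± 0.19, 0.000175), and those comparisons cannot be made inside a batch. Of these calls, that of Bela.Siro.F was lost without its replicate 42 (0.67, 0.15) and that of FR104.F without its replicate 23 (0.66, 0.0872). With the spike-in signal as a covariate the FR104.Siro.D14 change in SLC50A1 was 1.11 ± 0.16 (1.41e-05), and the Tac.Mtx.F call was lost (0.36, 0.0569). Myeloid markers were higher in these groups as well: 5 of 9 in Bela.F, 4, 4 and 3 in Bela.Siro.D14, Bela.Siro.D30 and Bela.Siro.F, 2 in FR104.D14, FR104.F and FR104.Siro.D14, and 3 in FR104.Siro.F. In Tac.Mtx.D14 and Tac.Mtx.F, where SLC50A1 was called too, 2 of the 9 were higher. Among the groups without an SLC50A1 call, 4 of the 9 were higher in NoRx.F and 2 in Siro.F. In Auto.D14, Auto.D36 and Tac.Mtx.D30 the number was 0. NoRx.F had SLC50A1 at a mean of 8.76, beside a healthy median of 8.89. The part of these markers in the SLC50A1 values was not tested. Only 1 probe set carried this gene.

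**Figure D2:**
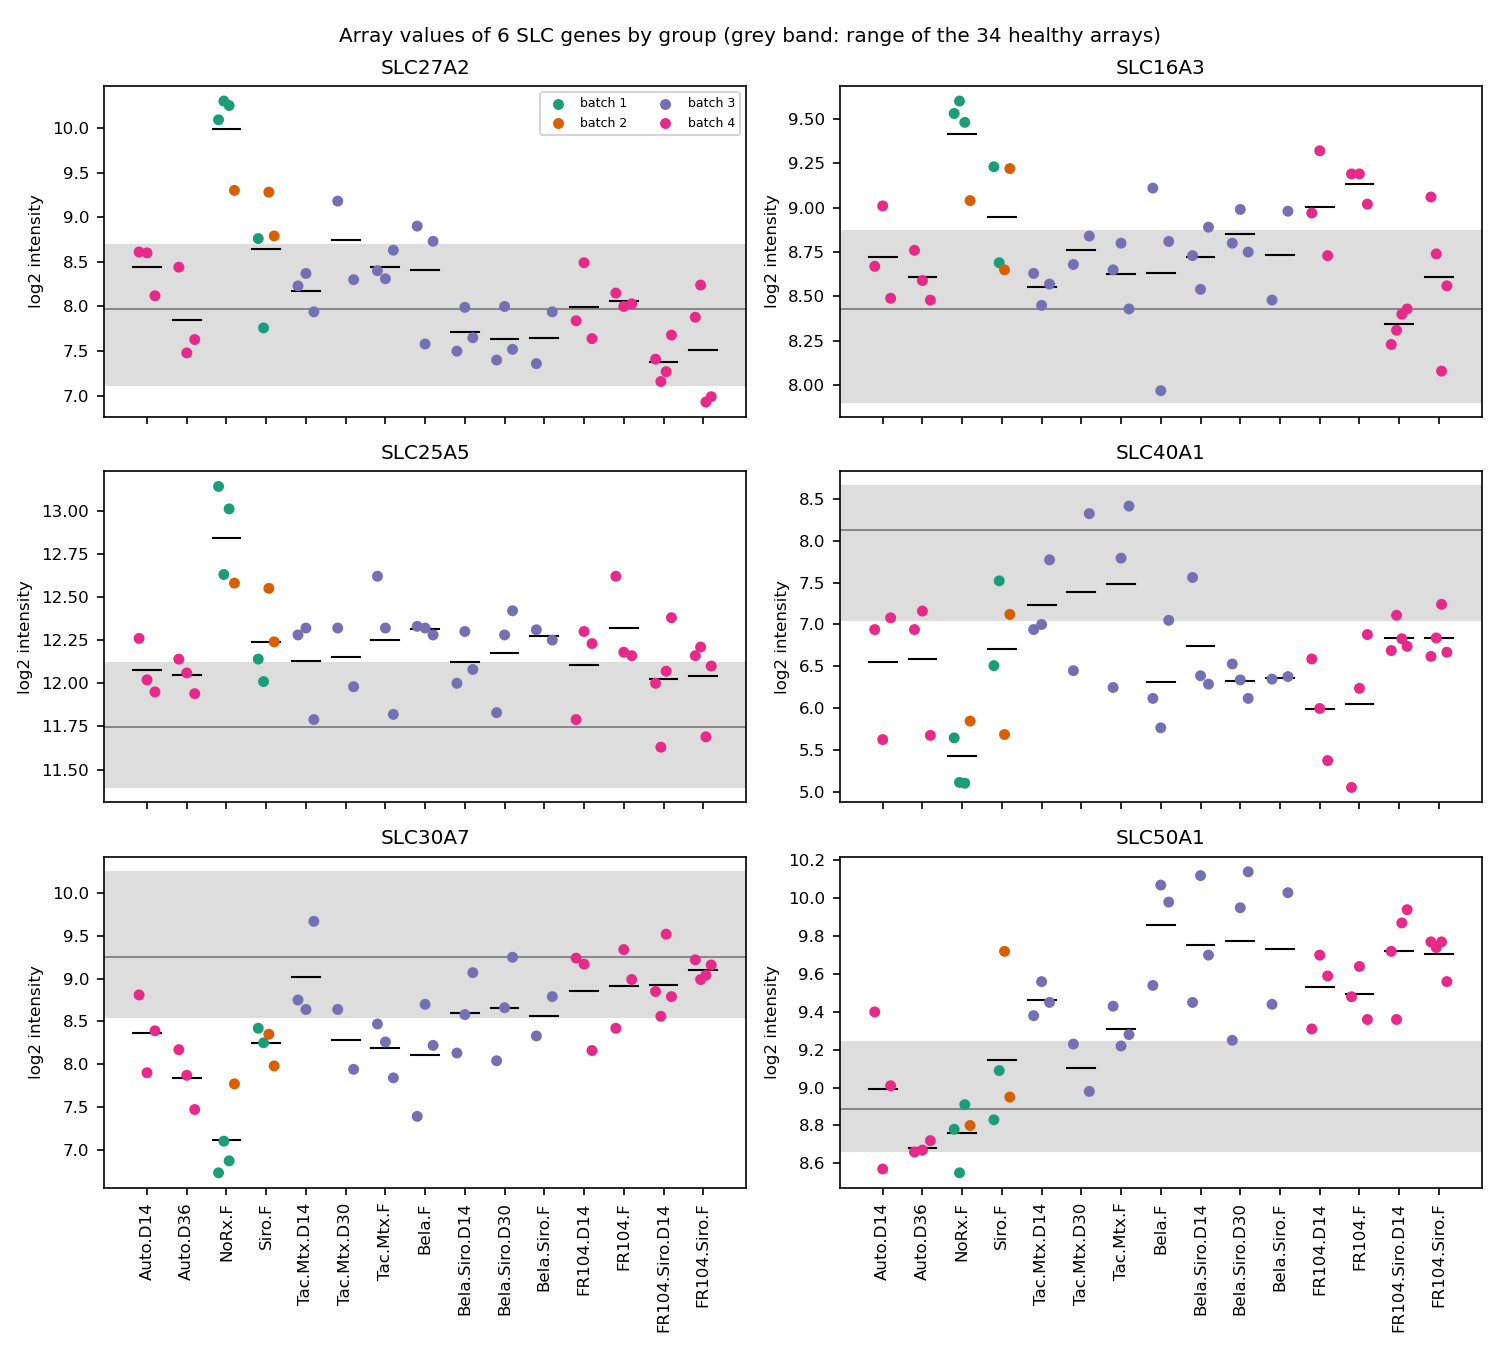
Log2 intensity of SLC27A2, SLC16A3, SLC25A5, SLC40A1, SLC30A7 and SLC50A1 on each array of the 15 transplant groups, with points coloured by labelled batch, black bars at group means, and a grey band and line for the range and median of the 34 healthy arrays. The NoRx.F points lie above the band for SLC27A2, SLC16A3 and SLC25A5 and below it for SLC40A1 and SLC30A7, and the SLC50A1 points of all Bela and FR104 groups lie above the band.

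Metal transporters held the strongest fall of any SLC gene. SLC40A1, or ferroportin, the iron exporter, read 5.65, 5.12, 5.11 and 5.85 in NoRx.F, against a healthy lowest value of 7.05, a median of 8.12 and a highest of 8.64. No array overlapped, and the change was -2.60 ± 0.32 (adjusted p = 4.69e-10). Its other probe set was lower too (-1.43 ± 0.31, 0.000184). SLC40A1 was also lower after autologous transplantation, by -1.50 ± 0.38 in Auto.D14 (0.0121) and -1.46 ± 0.38 in Auto.D36 (0.00401). Under prophylaxis it was lower in Siro.F (-1.33 ± 0.30, 0.00107), Bela.F (-1.75 ± 0.34, 9.8e-05), Bela.Siro.D14 (-1.32 ± 0.34, 0.0223), Bela.Siro.D30 (-1.74 ± 0.34, 0.000445), Bela.Siro.F (-1.71 ± 0.40, 0.0095), FR104.D14 (-2.07 ± 0.38, 0.000327), FR104.F (-2.0 ± 0.38, 0.000292), FR104.Siro.D14 (-1.21 ± 0.34, 0.0112) and FR104.Siro.F (-1.22 ± 0.34, 0.0143).

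The 3 Tac.Mtx groups were the ones in which SLC40A1 did not pass, with changes of -0.84 ± 0.34 on day 14 (adjusted p = 0.257), -0.69 ± 0.40 on day 30 (0.397) and -0.59 ± 0.34 at the final sample (0.274). Their animals spread widely: replicate 21 read 6.25 at the final sample, below the healthy range, and replicates 20 and 19 read 7.79 and 8.41, inside it. Against NoRx.F, SLC40A1 was higher in Tac.Mtx.F (2.02 ± 0.47, 0.00353), in FR104.Siro.F (1.39 ± 0.47, 0.0266) and in Siro.F (1.27 ± 0.38, 0.0184), calls that held in 6 of 7, 5 of 8 and 4 of 8 fits with an array left out. The smallest of these changes were 1.55 without Tac.Mtx.F replicate 19, 1.25 without FR104.Siro.F replicate 29 and 0.94 without Siro.F replicate 16. Calls against health were lost in Auto.D14 without replicate 202 (-1.05, 0.303), in Auto.D36 without replicate 202 (-1.0, 0.107), in Siro.F without replicate 13 (-0.94, 0.0611), in Bela.Siro.D14 without replicate 42 (-1.15, 0.279) or 49 (-1.09, 0.122), in FR104.Siro.F without replicate 27 (-1.14, 0.0546) or 28 (-1.16, 0.0548), and in Bela.Siro.F without either array (-1.69 and -1.72). In FR104.Siro.D14, whose arrays had high spike-in signals, the SLC40A1 change was -0.82 ± 0.42 (adjusted p = 0.375) with the spike-in signal as a covariate and -1.29 ± 0.44 (0.0727) with only the day 14 arrays.

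SLC30A7, which loads zinc into the Golgi, also fell in NoRx.F. It read 6.73, 7.10, 6.87 and 7.77 against a healthy lowest value of 8.56 and median of 9.26, a change of -2.12 ± 0.27 (adjusted p = 1.59e-09), and all 3 of its probe sets were lower. It was lower by smaller amounts in Auto.D36 (-1.41 ± 0.32, 0.00114), Siro.F (-1.0 ± 0.26, 0.00438), Tac.Mtx.F (-1.09 ± 0.29, 0.00737) and Bela.F (-1.19 ± 0.29, 0.00211). Those calls were lost without Siro.F replicate 18 (-0.89, 0.0502), Bela.F replicate 47 (-0.83, 0.133) and Tac.Mtx.F replicate 20 (-1.13, 0.0502) or 19 (-0.92, 0.0694). The 4 FR104 groups did not pass, with changes between -0.39 and -0.15. Against NoRx.F it was higher in FR104.Siro.F (1.98 ± 0.40, 0.000176), FR104.F (1.79 ± 0.42, 0.00485), Bela.Siro.F (1.40 ± 0.44, 0.0344) and Siro.F (1.13 ± 0.33, 0.0136). Of these, the Bela.Siro.F call held in 2 of 6 fits with an array left out (1.17 without Bela.Siro.F replicate 42) and the Siro.F call in 6 of 8 (1.00 without NoRx.F replicate 50).

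Other metal carriers rose. SLC39A8, a plasma membrane and lysosomal importer of zinc and manganese, was variable in health (6.21 to 9.01) and was higher in Siro.F (1.55 ± 0.37, adjusted p = 0.00162) and FR104.Siro.F (1.65 ± 0.42, 0.00545) in each of the 4 fits with an array of the group left out. Its rises in NoRx.F (1.00 ± 0.38, 0.0328), Bela.F (1.12 ± 0.41, 0.0472) and FR104.F (1.32 ± 0.46, 0.0486) held in 1 of 4, 0 of 3 and 1 of 3 such fits, with the smallest changes 0.72 without NoRx.F replicate 52, 1.03 without Bela.F replicate 57 and 1.00 without FR104.F replicate 22. With the spike-in signal as a covariate SLC39A8 did not pass in Bela.F (1.09, 0.0554) or FR104.F (1.25, 0.0641). SLC41A3, a magnesium carrier, read 7.10, 6.98 and 7.45 in Auto.D14, 7.86, 7.68 and 7.36 in Auto.D36 and 7.38, 7.33, 7.16 and 7.36 in NoRx.F, beside a healthy median of 6.49 and highest value of 7.38. It was higher by 1.14 ± 0.20 in Auto.D36 (5.42e-05), 0.84 ± 0.17 in NoRx.F (4.19e-05) and 0.78 ± 0.18 in Tac.Mtx.F (0.00261), and it overlapped the healthy range in all 3. The Auto.D14 change of 0.68 ± 0.20 (0.0344) was lost whichever array was left out, and the Tac.Mtx.F change without replicate 20 (0.65, 0.0728). SLC11A1, an iron and manganese carrier of phagocytes, passed in none of the 15 groups and read 7.87, 8.08, 7.78 and 7.58 in NoRx.F, inside the healthy range of 7.34 to 8.94.

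Mitochondrial carriers were led by SLC25A5, the ADP/ATP exchanger ANT2 of dividing cells. It read 13.14, 12.63, 13.01 and 12.58 in NoRx.F, and the healthy arrays did not exceed 12.12 (lowest 11.40, median 11.75). The change was 1.09 ± 0.13 (adjusted p = 1.16e-10). Smaller rises passed in Bela.F (0.56 ± 0.14, 0.00205), FR104.F (0.56 ± 0.15, 0.00962), Tac.Mtx.F (0.50 ± 0.14, 0.00953), Siro.F (0.49 ± 0.12, 0.00284) and Bela.Siro.D30 (0.42 ± 0.14, 0.0432). Calls were lost in FR104.F without replicate 22 (0.41, 0.203), in Siro.F without replicate 13 (0.37, 0.0733), in Tac.Mtx.F without replicate 21 (0.31, 0.232) or 20 (0.46, 0.0896), and in Bela.Siro.D30 without replicate 42 (0.37, 0.244) or 49 (0.30, 0.405). NoRx.F was above Auto.D14 by 0.78 ± 0.20 (0.014), but not without Auto.D14 replicate 200 (0.71, 0.0683) or NoRx.F replicate 50 (0.68, 0.064). Against NoRx.F, SLC25A5 was lower in Siro.F (-0.60 ± 0.15, 0.00442), Tac.Mtx.F (-0.59 ± 0.19, 0.0377) and FR104.Siro.F (-0.81 ± 0.19, 0.000921), and in the other 3 final groups it did not pass. The Tac.Mtx.F call held in 3 of 7 fits with an array left out and was -0.38 (0.304) without Tac.Mtx.F replicate 19. The 8 cell division genes were lower than in NoRx.F as well in these groups, with 6 of 8 called in Siro.F, 8 in Tac.Mtx.F and 7 in FR104.Siro.F, and with 0 in Bela.F, 6 in Bela.Siro.F and 4 in FR104.F.

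Among the mitochondrial carriers that fell in NoRx.F, SLC25A29, a carrier of basic amino acids, changed by -1.46 ± 0.35 (adjusted p = 0.000584) and SLC25A27, an uncoupling protein family member, by -1.01 ± 0.33 (0.0124). The SLC25A27 call was lost without replicate 51 (-0.84, 0.0706) or 52 (-0.82, 0.0792), and its other 2 probe sets did not pass (-0.29 with adjusted p = 0.313 and -0.22 with 0.354). SLC25A29 was also lower in Siro.F (-1.44 ± 0.34, 0.00157), Bela.F (-1.37 ± 0.38, 0.00723) and FR104.D14 (-1.56 ± 0.42, 0.0153). Those calls were lost without Siro.F replicate 18 (-1.0, 0.0869), Bela.F replicate 47 (-1.37, 0.0524) and FR104.D14 replicate 22 (-1.61, 0.0546) or 23 (-1.21, 0.259). In Bela.Siro.F its 2 arrays stood at 6.98 and 4.37, on either side of the healthy range of 4.80 to 6.79. SLC25A25, a calcium-regulated ATP-Mg/phosphate carrier, fell by 0.56 ± 0.12 in NoRx.F (0.000108) and by 0.36 to 0.47 in Auto.D36, Siro.F, Bela.F, FR104.F, FR104.Siro.D14 and FR104.Siro.F. The SLC25A25 call held in 4 of 4 fits with an array left out in NoRx.F and in Siro.F, in 1 of 3 in Auto.D36, Bela.F and FR104.F, in 1 of 4 in FR104.Siro.D14 and in 2 of 4 in FR104.Siro.F. Its other 2 probe sets did not pass in NoRx.F (adjusted p = 0.576 and 0.449). SLC25A28, the iron importer mitoferrin-2, fell by 0.40 ± 0.10 in NoRx.F (0.00112) and most in FR104.Siro.F (-0.63 ± 0.11, 8.87e-05), where the arrays read 8.0, 8.29, 8.0 and 8.03 below a healthy lowest value of 8.41. Of the rises, SLC25A10, the dicarboxylate carrier, and SLC25A11, the oxoglutarate carrier, gained 0.49 ± 0.12 (0.00053) and 0.41 ± 0.10 (0.000497).

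The remaining classes had single members with large changes. SLC14A1, the urea transporter of the Kidd blood group, read 4.79, 5.64, 4.77 and 4.93 in NoRx.F, and the healthy arrays ranged from 5.51 to 9.16 with a median of 7.03, a change of -2.12 ± 0.49 (adjusted p = 0.000348). It was lower in Siro.F (-1.60 ± 0.47), Bela.F (-1.56 ± 0.53), Auto.D36 (-1.71 ± 0.59) and Bela.Siro.D30 (-1.81 ± 0.53), and higher in FR104.Siro.F than in NoRx.F (2.07 ± 0.73, 0.0344). That last call held in 3 of 8 fits with an array left out (1.83 without FR104.Siro.F replicate 29). The calls against health held in 4 of 4 such fits in NoRx.F, 2 of 4 in Siro.F, 1 of 3 in Bela.F, 0 of 3 in Auto.D36 and 1 of 3 in Bela.Siro.D30, with the smallest change -1.22 without Bela.F replicate 46. SLC22A23, an organic ion carrier family member, fell by 1.81 ± 0.36 in NoRx.F (4.08e-05) and by 2.02 ± 0.43 in Auto.D36 (0.000615), on its brightest probe set only: its other 2 changed by 0.11 and -0.19 in NoRx.F, with adjusted p of 0.533 and 0.23. The choline carrier SLC44A2 was higher on its brightest probe set by 0.93 ± 0.22 in Auto.D14 (0.00771), 0.87 ± 0.22 in Auto.D36 (0.00324), 0.78 ± 0.18 in NoRx.F (0.000381) and 0.96 ± 0.20 in Tac.Mtx.F (0.000792). In Auto.D36 another SLC44A2 probe set, at a mean of 9.045, was lower (-0.55 ± 0.18, 0.0197). The remaining one did not pass there (0.28 ± 0.16, 0.234). SLC29A1, the equilibrative nucleoside transporter ENT1, did not pass in NoRx.F on its brighter probe set (0.04 ± 0.14, 0.862), while its other probe set, at a mean of 5.57 beside 5.87, rose there by 0.92 ± 0.14 (3.38e-07). On the brighter one it was higher in Auto.D36 (0.92 ± 0.16, 5.85e-05), FR104.D14 (0.76 ± 0.16, 0.00242), FR104.F (0.80 ± 0.16, 0.000733), Bela.F (0.53 ± 0.15, 0.00689) and FR104.Siro.F (0.44 ± 0.15, 0.0435). SLC29A1 calls were lost in FR104.D14 without replicate 23 (0.66, 0.0633), in Bela.F without replicate 47 (0.49, 0.077) or 46 (0.44, 0.0969), and in FR104.Siro.F without replicate 27 (0.40, 0.136) or 28 (0.30, 0.294), and the SLC44A2 call in Auto.D14 without replicate 202 (0.82, 0.159).

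SLC4A7, the brightest ion carrier, gave opposite answers on different probe sets. Its brightest probe set, used in the tests, fell by 0.61 ± 0.09 in NoRx.F (adjusted p = 3.95e-08 in the fit over probe sets). Another, with a mean level of 10.58, rose by 1.49 ± 0.13 (8.2e-15). Of the rest, that at 9.98 changed by -1.63 ± 0.17 (6.34e-12), that at 9.22 by -0.71 ± 0.22 (0.0099), and the dimmest at 6.48 by -0.16 ± 0.20 (0.59). Over the 79 SLC genes with several probe sets past the filter and all comparisons, 17 of 2054 pairs of gene and comparison had calls in both directions, in 3 genes: SLC4A7, SLC39A13 and SLC44A2. For those 3 a direction holds for the named probe set and not for the gene.

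**Figure D3:**
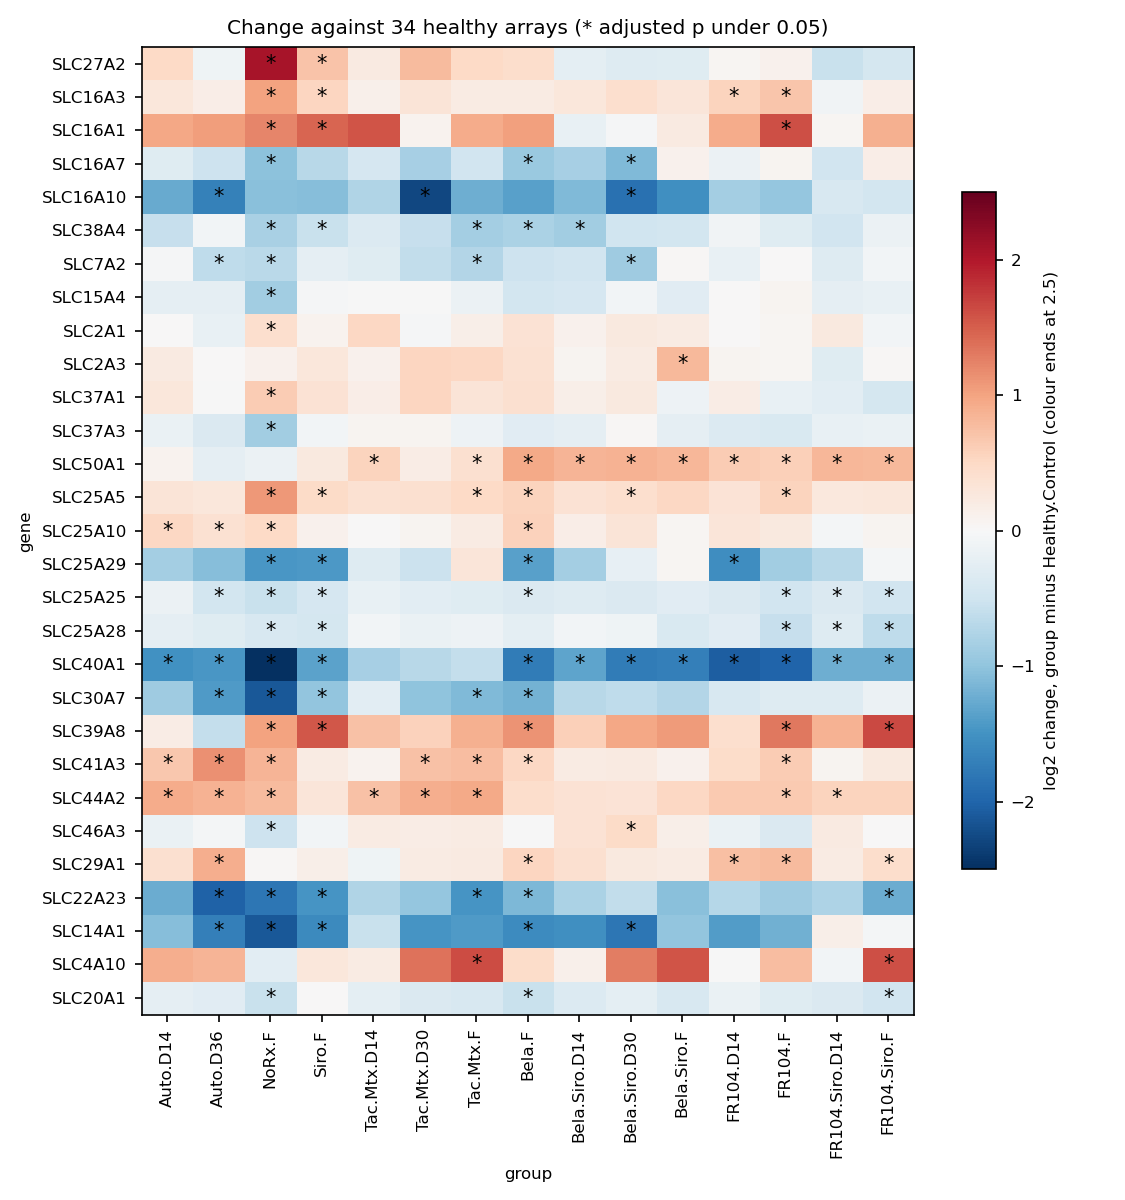
Log2 change against the 34 healthy arrays of 29 SLC genes (rows, grouped by substrate class) in the 15 transplant groups (columns), with red higher, blue lower, and a star where the adjusted p is under 0.05 (limma). The colour scale ends at 2.5 in either direction, so SLC40A1 in NoRx.F at -2.60 is at its end. SLC40A1 is blue in all columns, with no star in the 3 Tac.Mtx columns, and SLC50A1 is starred in all Bela and FR104 columns.

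Across the autologous groups, 4 SLC genes were higher and 2 lower in Auto.D14 against health, where 2.47% and 1.92% of all genes were called, and 11 were higher and 16 lower in Auto.D36 (all genes 7.83% and 8.89%). The shares of SLC genes, 2.01% and 1.01%, and 5.53% and 8.04%, were near or below these. Without Auto.D14 replicate 202, one of the arrays with a high spike-in signal, 0 SLC genes passed there, and the Auto.D36 count fell to 16 without replicate 200 and to 16 without replicate 202. SLC25A15, the ornithine carrier of mitochondria, was higher in Auto.D36 at 5.78, 6.45 and 5.65 (1.05 ± 0.22, adjusted p = 0.000585). Auto.D36 and Auto.D14 came from the same animals, 200, 201 and 202. In the main fit, which ignores this pairing, no SLC gene passed between them (0.974% of all genes did). Before adjustment 23 SLC genes, 11.6%, had p under 0.05, as did 11.3% of all genes, and the smallest p was that of SLC9A7, an organelle sodium/proton exchanger (0.79 ± 0.22, adjusted p = 0.0537). With the animal as a replicate block, which uses the pairing, 7 SLC genes passed. The count of 0 also moved in fits that ignore the pairing, and the part of the pairing in it was not tested. In the fit without the block, 9 passed when Auto.D14 replicate 200 was left out.

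With single-drug or standard prophylaxis, Siro.F had 12 SLC genes higher and 10 lower than health (all genes 8.26% and 6.34%), Tac.Mtx.F 21 and 8 (10.7% and 3.41%), and Bela.F 13 and 11 (12.4% and 5.25%). The SLC share called in either direction was 11.1%, 14.6% and 12.1%, beside 14.6%, 14.1% and 17.6% of all genes. Without Siro.F replicates 13 or 18 the count was 9 or 13 in place of 22. Without Tac.Mtx.F replicates 21, 20 or 19 it was 14, 4 or 18 in place of 29, and without Bela.F replicates 47 or 46 it was 5 or 11 in place of 24. Earlier Tac.Mtx samples had 3 higher and 0 lower on day 14 (1.4% and 0.0678%) and 4 and 1 on day 30 (2.85% and 0.61%). None of the day 14 calls remained whichever of the 3 arrays was left out, and none of the day 30 calls without either of its arrays. In Tac.Mtx.F the inositol carrier SLC5A3 read 5.10, 4.55 and 4.67, below the healthy lowest value of 5.23 (-1.24 ± 0.27, adjusted p = 0.0012), and the bicarbonate carrier SLC4A10 read 7.10, 8.65 and 8.08 beside a healthy highest value of 7.45 (1.62 ± 0.46, 0.011), a call lost without replicate 20 (1.27, 0.171).

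With belatacept and sirolimus, 1 SLC gene was higher and 2 lower on day 14 (all genes 1.99% and 0.525%), 8 and 10 on day 30 (4.23% and 2.95%), and 2 and 1 at the final sample (1.87% and 0.966%). Day 30 was one of the comparisons in which the SLC share, 9.05%, lay above that of all genes, 7.18%. Without replicates 42 or 49 its count was 8 or 4 in place of 18, and replicate 49 also held the lowest values there of SLC16A7 and of SLC25A37, the mitochondrial iron importer mitoferrin-1 (6.69, beside 8.06 and 7.76). Without replicates 42 or 49 on day 14 the count was 1 in place of 3, and without replicate 42 at the final sample it was 0. With the animal as a replicate block the final count was 5 in place of 3.

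With FR104 alone, 4 SLC genes were higher and 4 lower on day 14 (all genes 2.58% and 2.8%) and 8 and 5 at the final sample (5.39% and 5.28%). Without replicates 24, 22 or 23 the day 14 count was 4, 3 or 1 in place of 8, and without replicate 22 the final count was 3 in place of 13. FR104.Siro.F had 5 higher and 9 lower (2.91% and 7.15%), with 6 in place of 14 without replicate 27 or replicate 28. With the animal as a replicate block the FR104.F count was 21, and within batch 4 it was 8. The FR104.Siro.F count was 8 with the spike-in signal as a covariate and 8 with the mean of probe sets. Without the batch term the 2 final counts were 23 and 31.

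FR104.Siro.D14 had 22 SLC genes higher and 13 lower (all genes 8.52% and 9.68%). The rises were small, from 0.25 to 0.82, and 14 of the 22 were of genes below the SLC median in health. Among them were SLC34A1, a phosphate carrier of kidney, and SLC5A2, its glucose carrier. SLC34A1 and SLC6A20, which was also called higher here, exceeded the filter floor in fewer than 10 arrays. Such genes entered the test only through arrays where they were high, so their rises are not independent of the filter. The same holds for the calls of SLC6A20 as higher in Bela.Siro.D30 and FR104.Siro.F and of SLC12A8 in NoRx.F and Bela.F. It also holds for the call of SLC12A8 as lower in FR104.Siro.F than in NoRx.F. All 4 arrays of this group had spike-in signals above every healthy array, 11.74 to 12.56 against at most 11.57. With the spike-in signal as a covariate 1 SLC gene passed in place of 35, with batch 4 alone 14, and with only the 2 day 14 arrays 9. Without replicate 29 the count was 22 and without replicate 27 it was 18.

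**Figure D4:**
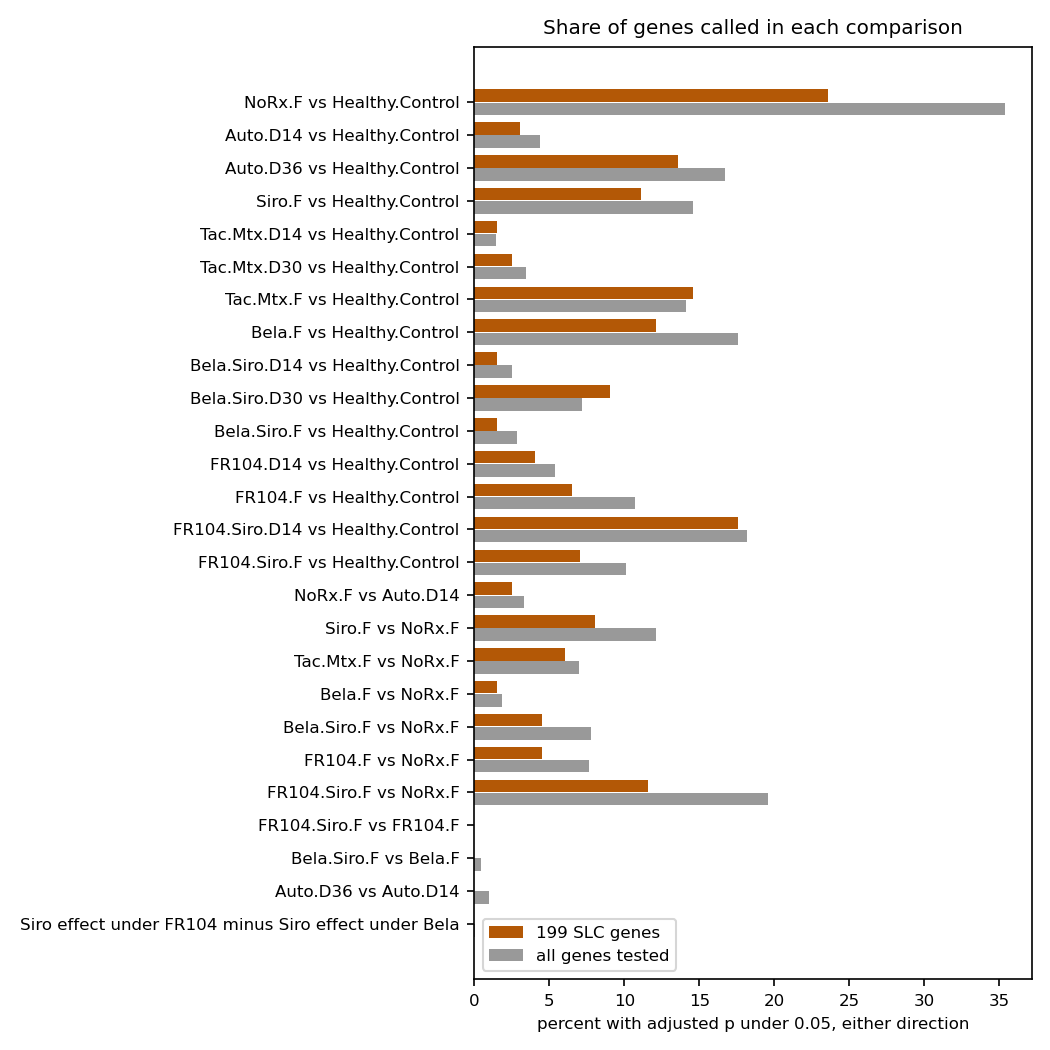
Percent of the 199 SLC genes (brown) and of all 11807 genes tested (grey) with adjusted p under 0.05 in either direction, for each of the 25 comparisons and for the difference between the sirolimus effects (bottom row). In NoRx.F against Healthy.Control 23.6% of SLC genes and 35.4% of all genes were called, and no SLC gene was called in the bottom 4 rows.

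NoRx.F against Auto.D14, the contrast of an allogeneic with an autologous graft in recipients without prophylaxis, gave 2 SLC genes higher (SLC27A2 and SLC25A5; all genes 1.9%) and 3 lower (SLC35A1, SLC37A3 and SLC4A2; 1.43%). SLC35A1, the CMP-sialic acid carrier of the Golgi, was lower by -0.77 ± 0.22 (adjusted p = 0.0351), a call kept in 2 of 7 fits with an array left out (-0.66 without NoRx.F replicate 50). The count was 8 with the animal as a replicate block, 9 without NoRx.F replicate 53, 1 without NoRx.F replicate 50, 3 without NoRx.F replicates 51 or 52 and 2 without Auto.D14 replicates 200 or 201. NoRx.F lies in batches 1 and 2 and Auto.D14 in batch 4, so this contrast rests on the healthy arrays that link the batches.

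Against NoRx.F, Siro.F had 10 SLC genes higher and 6 lower (all genes 5.39% and 6.67%), Tac.Mtx.F 8 and 4 (4.7% and 2.24%), Bela.F 1 and 2 (1.67% and 0.195%), Bela.Siro.F 5 and 4 (4.22% and 3.53%), FR104.F 4 and 5 (3.54% and 4.12%) and FR104.Siro.F 11 and 12 (6.56% and 13.1%). In all 6 the SLC share called was below the share of all genes, from 1.51% against 1.86% in Bela.F to 11.6% against 19.6% in FR104.Siro.F. NoRx.F replicate 53 moved some of these counts: without it 7 genes passed in Bela.F and 15 in FR104.F, in place of 3 and 9. Without NoRx.F replicates 50, 51 or 52 the Siro.F count was 10 in place of 16, and the Tac.Mtx.F count was 7, 7 or 6 in place of 12. Of the treated arrays, leaving out Siro.F replicate 16 gave 8, Tac.Mtx.F replicates 20 or 19 gave 7 or 3, Bela.F replicate 57 gave 1, and FR104.F replicate 23 gave 4. For Bela.Siro.F, with 2 arrays, the count of 9 fell to 4 or 3 without replicate 38 or 42 and to 5 without NoRx.F replicate 51 or 52.

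Further members were called in several of these 6 comparisons, which share the NoRx.F arrays. SLC46A3, a lysosomal carrier of the folate carrier family, fell by 0.52 ± 0.12 in NoRx.F against health (adjusted p = 0.000284) and was higher than NoRx.F in Siro.F (0.44 ± 0.14), Tac.Mtx.F (0.72 ± 0.17), Bela.Siro.F (0.67 ± 0.19) and FR104.Siro.F (0.52 ± 0.17). Those 4 calls held in 3 of 8, 7 of 7, 3 of 6 and 5 of 8 fits with an array left out, with the smallest changes 0.34 in Siro.F without Siro.F replicate 13 and 0.45 in FR104.Siro.F without NoRx.F replicate 51. SLC25A26, the S-adenosylmethionine carrier of mitochondria, read 8.65, 8.42, 8.79 and 8.71 in NoRx.F and was lower than there in Siro.F (-0.42 ± 0.12), Bela.Siro.F (-0.54 ± 0.16), FR104.F (-0.60 ± 0.15) and FR104.Siro.F (-0.54 ± 0.14). The Bela.Siro.F call was lost without Bela.Siro.F replicate 42 (-0.43, 0.24) or NoRx.F replicate 52 (-0.49, 0.054), and the FR104.F call without FR104.F replicate 23 (-0.54, 0.0537). SLC15A4 was higher than NoRx.F in Siro.F (0.85 ± 0.22, 0.00439) and FR104.F (0.95 ± 0.28, 0.0242), the latter in 3 of 7 fits with an array left out (0.82 without FR104.F replicate 22). SLC4A10 was higher in FR104.Siro.F (1.88 ± 0.62, 0.024), at 7.84, 9.61, 6.64 and 7.54, and in Tac.Mtx.F (1.89 ± 0.62, 0.0486), the former lost without replicate 26 (1.31, 0.13) and the latter kept in 1 of 7 fits with an array left out.

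Adding sirolimus to a CD28 agent changed no SLC gene by the test. In FR104.Siro.F against FR104.F 0 of 199 passed (0.00847% of all genes did), and 11 had an unadjusted p under 0.05 (5.53%, against 7.42% of all genes), the smallest being that of SLC2A8, a glucose transporter of internal membranes (-0.60 ± 0.19, adjusted p = 0.5). In Bela.Siro.F against Bela.F 0 passed (0.457% of all genes), and 8 had an unadjusted p under 0.05 (4.02%, against 9.07%), led by SLC25A10 (-0.52 ± 0.18, 0.222). There 1 SLC gene passed without Bela.F replicate 57 and 1 without Bela.Siro.F replicate 42. The difference between the 2 sirolimus effects also called 0 SLC genes (0.0254% of all genes) and 3 had an unadjusted p under 0.05, with SLC7A7 at -1.43 ± 0.61 (adjusted p = 0.999). With 2 to 4 arrays a group, a p that misses the threshold does not show that the genes were alike.

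Of a list of 37 genes of nutrient use whose symbols do not have the SLC form, 28 were tested. The list is not free of transporters. In NoRx.F 9 of the 28 were higher and 3 lower, where 20.0% and 15.4% of all genes tested were. Those higher included LDHA, which makes lactate (1.32), the hexokinases HK2 (0.79) and HK1 (0.57), the MCT chaperone BSG (0.45), the mitochondrial uncoupler UCP2 (0.88) and 4 LAMTOR subunits of the lysosomal Ragulator complex (LAMTOR1, LAMTOR2, LAMTOR4 and LAMTOR5, 0.22 to 0.66). Those lower were TXNIP, an inhibitor of glucose uptake (-1.76), MYC (-1.48) and the phosphate exporter XPR1 (-0.31). The list was chosen with earlier results of these data known.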

How the data were processed

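RNA of sorted CD3 T cells (3' IVT Plus labelling, per the labels' protocols) was hybridized to Affymetrix rhesus arrays, 81 in all. The authors deposited log2 values made by RMA in the affy package, per the submitters' processing notes, whose versions are not given in the sources used here; the values look adjusted for batch, by a step not given in the sources used here. Values were used as deposited. Of 52865 probe sets, 24969 named 1 gene, 361 named several and 27535 are unnamed here; the brightest single-gene probe set stood for its gene (14133 genes), and genes above the 40th percentile (4.65) in at least 2 arrays were tested (11807). Symbols were current in RefSeq for 198 of 199 SLC genes. One limma model (version 3.58.1, R 4.3.3, 62 residual degrees of freedom) held all 16 groups and the 4 labelled batches, with eBayes and Benjamini-Hochberg adjustment over all genes. The scripts ran in Python 3.11.15 with pandas 2.3.3 and matplotlib 3.10.9, and were tested on simulated data.

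The SLC genes, substrate classes and gene lists were chosen with earlier results of these data known. Genes named with values were a fixed list of carriers, the 5 (NoRx.F and final groups against healthy) or 3 (other comparisons) largest rises and falls past the test, up to 3 members of each class with the smallest adjusted p in NoRx.F, and called genes of the nutrient list. SLC34A1 and SLC5A2 in FR104.Siro.D14, SLC1A7, SLC9A7, SLC7A7 and SLC25A39 were named after their values were seen. A replicate number is an animal, and a number shared between groups pairs the samples: deviations of Auto.D14 and Auto.D36 arrays of the same animal correlated at 0.205, 0.364 and 0.225. The animal as a replicate block (statmod 1.5.0) had a correlation of 0.194. Alternatives were no batch term, this block, no filter, the mean of probe sets, renewed quantile normalization, each batch alone, each transplant array left out, only the day 14 arrays of FR104.Siro.D14 and, added after the data were seen, the spike-in signal as a covariate. The T cell markers CD3D, CD3E, CD3G, CD2 and LCK are not named in the gene table used here. The number of arrays in each group limits the precision.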

Additional observations from a re-analysis of the deposited data

Results flagged for a closer look

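In 3 of 116 sets of 4 arrays (a named gene in a group of 4 arrays, where the gene was called in a comparison with that group), 1 array lay far from the other 3 relative to the range of the group, above the critical share of 0.829. Chance alone gives such an array in about 1 in 20 groups. SLC25A28 in FR104.Siro.F replicate 26 read 8.29, and the other 3 arrays lay between 8.0 and 8.03. SLC50A1 in FR104.Siro.F replicate 28 read 9.56, with the others between 9.74 and 9.77. SLC25A37 in NoRx.F replicate 53 read 8.10, with the others between 8.61 and 8.68, and this replicate is the only NoRx.F array of batch 2.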

How the results depend on the processing

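Of 26 counts of SLC genes called, none moved by more than 1.5 times without the filter on low values, 4 did with the animal as a replicate block, 2 with renewed quantile normalization, 5 with the mean of probe sets and 17 without the batch term. Without the batch term the counts against health were 16 in Auto.D14, 43 in Auto.D36, 6 in Tac.Mtx.D14, 8 in Tac.Mtx.D30, 5 in Bela.Siro.D14, 5 in Bela.Siro.F, 16 in FR104.D14, 23 in FR104.F, 77 in FR104.Siro.D14 and 31 in FR104.Siro.F. Against NoRx.F they were 26 in Tac.Mtx.F, 9 in Bela.F, 17 in Bela.Siro.F, 30 in FR104.F and 44 in FR104.Siro.F, with 14 for NoRx.F against Auto.D14 and 1 for Auto.D36 against Auto.D14. With the animal as a replicate block the counts were 5 in Bela.Siro.F and 21 in FR104.F against health, 8 for NoRx.F against Auto.D14 and 7 for Auto.D36 against Auto.D14, and among 262 single gene results 259 kept their call and direction; the mean of probe sets kept 194, with 64 calls lost, the spike-in covariate 226, with 36 lost, and leaving out 1 array 748 of 1145, with 397 lost. With the mean of probe sets the counts were 3 in Tac.Mtx.D30, 7 in Bela.Siro.D14 and 8 in FR104.Siro.F against health, 3 for NoRx.F against Auto.D14 and 3 for Auto.D36 against Auto.D14, and 4 genes turned: SLC39A13 in Auto.D36 (0.41), SLC25A11 in Bela.F (-0.015), SLC4A7 in FR104.F (0.10) and SLC44A2 in FR104.Siro.D14 (-0.066). With renewed quantile normalization the counts were 7 for Tac.Mtx.F against NoRx.F and 2 for Auto.D36 against Auto.D14. Within batches they were 5 in Siro.F (batch 1), 0, 3 and 18 in Tac.Mtx.D14, Tac.Mtx.D30 and Tac.Mtx.F (batch 3), and 3, 4, 8 and 14 in Auto.D14, FR104.D14, FR104.F and FR104.Siro.D14 (batch 4), and SLC16A1 in Siro.F turned to -0.087 within batch 1. With only its day 14 arrays FR104.Siro.D14 had 9. With the spike-in signal as a covariate the counts were 5 in FR104.D14, 1 in FR104.Siro.D14 and 8 in FR104.Siro.F. The causes of these moves were not tested, except that single batches and day 14 hold fewer arrays. The shares of all genes called in the alternative fits are not given, here or above. A count that moved is therefore not read as a result about the SLC genes. Leaving out 1 array gave, against health, 37 to 41 in NoRx.F, 0 to 8 in Auto.D14, 16 to 19 in Auto.D36, 9 to 21 in Siro.F, 0 to 3 in Tac.Mtx.D14, 0 to 0 in Tac.Mtx.D30, 4 to 18 in Tac.Mtx.F, 5 to 24 in Bela.F, 1 to 3 in Bela.Siro.D14, 4 to 27 in Bela.Siro.D30, 0 to 4 in Bela.Siro.F, 1 to 4 in FR104.D14, 3 to 11 in FR104.F, 18 to 30 in FR104.Siro.D14 and 6 to 18 in FR104.Siro.F. Against NoRx.F it gave 8 to 18 in Siro.F, 3 to 15 in Tac.Mtx.F, 1 to 7 in Bela.F, 3 to 12 in Bela.Siro.F, 4 to 15 in FR104.F and 16 to 26 in FR104.Siro.F. It gave 1 to 9 for NoRx.F against Auto.D14, 0 to 9 for Auto.D36 against Auto.D14, 0 to 1 for Bela.Siro.F against Bela.F, and 0 to 0 for FR104.Siro.F against FR104.F and for the difference between the sirolimus effects. In groups of 2 the lone remaining array is assumed to vary like the other groups. Group sizes of 2 to 4 arrays limit all counts.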

Other observations

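In 1 array, Tac.Mtx.D14 replicate 21, several SLC genes stood far above the healthy range together. SLC16A1 read 9.29 there, beside a healthy highest value of 5.77 and 4.97 and 4.79 in the other 2 arrays of the group. SLC2A1 read 7.11 (healthy highest 5.89), SLC25A39, a mitochondrial carrier needed for glutathione import, 8.98 (8.19), and the mitochondrial iron importer SLC25A37 9.20 (8.87). The mean of 9 erythroid marker genes was 7.51 in the same array, with a healthy range of 5.04 to 6.05, and 5 of the 9 were called higher in that group. FR104.F replicate 24, with SLC16A1 at 7.67, had an erythroid mean of 6.62, while Siro.F replicate 13, with SLC16A1 at 7.94, had an erythroid mean of 5.40, inside the healthy range. The part of these markers in the SLC values was not tested.

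SLC4A10 was above the healthy range in some animals of several groups, and in each sample of 1 animal. Bela.Siro animal 38 read 7.46 on day 14, 9.02 on day 30 and 8.98 at its final sample, beside a healthy range of 4.67 to 7.45. FR104.Siro.F replicate 26 read 9.61 and FR104.F replicate 22 read 8.32. SLC4A10 was called higher than health in FR104.Siro.F and Tac.Mtx.F. Those calls held in 3 of 4 and 2 of 3 fits with an array of the group left out. Samples of 1 animal are not independent.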
